A study of Mus musculus with 18 samples.

Results

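The mRNA of 7 chemokine receptors (*Ccr1*, *Ccr2*, *Ccr3*, *Ccrl2*, *Cx3cr1*, *Cxcr4* and *Ackr3*) was followed through 6 treatments of RAW264.7 cells. They were picked by gene symbol from a count table of 56748 genes, and each symbol matched 1 gene. RAW264.7 is an immortalised mouse macrophage-like line from a virus-induced tumour, so every value describes 1 line in culture and not primary macrophages. RNA from 18 libraries, 3 per condition, was sequenced after poly(A) selection. Control cells were kept in medium and given nothing further. TBHQ (tert-butylhydroquinone, a phenolic food antioxidant and an inducer of the Nrf2 oxidative stress response) was given alone at 5 µM for 4 h. LPS, a bacterial cell wall component sensed by TLR4, was given at 0.1 µg/mL for 12 h, and PIC (poly I:C), a double-stranded RNA that mimics viral RNA and is sensed by TLR3, at 20 µg/mL for 12 h. In the LPS+TBHQ and PIC+TBHQ conditions the same TBHQ dose was given for 4 h and the stimulus then for 12 h. The comparisons ask how far the receptors respond to each stimulus and whether TBHQ beforehand changes that response. LPS and PIC had the same hours, with or without TBHQ. The condition with TBHQ alone was taken after 4 h, and TBHQ before a stimulus added 4 h, so in these comparisons time and treatment cannot be told apart. TBHQ was dissolved in DMSO, and no DMSO control is described for the sequenced cells, so TBHQ and solvent cannot be told apart either. The methods give no separate harvest hour for the control, which the study's timeline lists beside the 12 h conditions.

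Chemokine receptors are G protein-coupled receptors on leukocytes that sense small secreted chemokines and steer migration along their gradients. Atypical receptors of the family bind chemoattractants without G protein signalling and scavenge or present them to other cells. In the monocyte and macrophage lineage *Ccr2* directs the exit of inflammatory monocytes from bone marrow, and *Cx3cr1* marks patrolling monocytes and many tissue-resident macrophages. The study describes the 3 libraries of a condition as biological replicates and does not say whether they came from separate cultures, so the p-values measure the spread between these libraries.

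Total counts ran from 14423390 to 18851626 per library. All 8 macrophage markers checked were above 3 counts, with *Lyz2*, which encodes lysozyme, between 61055 and 99994 counts per library. Of 3 markers each, B cells had 1 above 3 counts (*Cd79a*, at most 7), fibroblasts 1 (*Pdgfra*, at most 8) and dendritic cells 1 (*Zbtb46*, 11 to 26). *Zbtb46* had 13 to 15 counts in control, 18 to 20 with TBHQ alone and 22 to 26 with PIC. With LPS (11 to 22 counts), LPS+TBHQ (12 to 19) and PIC+TBHQ (12 to 22) it overlapped the control. No marker of T cells (3 checked), eosinophils (3 checked) or epithelium (2 checked) rose above 3 counts in a library. Of 3 neutrophil markers, *Ly6g* and *S100a9* had no counts in any library, while *S100a8*, which activated macrophages also express, had 7 to 10 counts in control, 29 to 37 with LPS and 48 to 67 with PIC. Macrophage markers themselves moved with treatment, as *Adgre1*, which encodes F4/80, stood at 18.4 ± 1.08 FPKM (SD, n = 3) in control and 67.6 ± 2.89 FPKM with PIC, and the part of this in the receptor values was not tested. With TBHQ alone *Adgre1* stood at 12.8 ± 1.08 FPKM, and *Fcgr1*, an Fc receptor gene, at 5.77 ± 0.482 FPKM against 13.98 ± 0.206 FPKM in control. *Itgam*, which encodes CD11b, stood at 7.94 ± 0.508 FPKM with TBHQ against 10.6 ± 0.198 FPKM in control. *Lyz2* was also below the control in each library with TBHQ alone, while *Cd68*, *Spi1* and *Cd14* overlapped the control. *Csf1r*, the receptor for the macrophage growth factor M-CSF, lay above the control with TBHQ alone and below it with PIC, at 154 ± 4.58 FPKM in control, 174 ± 0.977 FPKM with TBHQ alone and 86.1 ± 5.18 FPKM with PIC.

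A condition was taken to be at the floor of detection for a gene when each of its libraries held 3 counts or fewer, which is 0.159 to 0.208 CPM (counts scaled to library size) at these depths. *Ackr3*, an atypical receptor that scavenges Cxcl12 and Cxcl11, was at this floor in all 6 conditions, with 1 count in LPS replicate 3 and 0 counts in the other 17 libraries. No change in *Ackr3* could be detected at this depth, and it was not tested. *Cxcr4* was at the floor with PIC alone, and the other 5 receptors were above it in every condition. The floor and all intervals given here cover counting error only. Levels are given as FPKM, fragments scaled by transcript length and library size, with 1 further constant per library in the deposited values. Scaling by length allows receptors of different transcript length to be compared.

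Between them the receptors spanned a wide range. In control cells *Ccr1* and *Cx3cr1* made up 50.7% and 31.0% of the summed FPKM of the 7 receptors, and *Ccrl2* 11.2%. With PIC the composition was different, since *Ccrl2* held 79.3% against 40.1% with LPS. The sum itself was 20.3 ± 0.890 FPKM (SD, n = 3) in control, 11.8 ± 0.251 FPKM with TBHQ, 22.0 ± 1.61 FPKM with LPS and 68.4 ± 4.23 FPKM with PIC. After TBHQ it was 13.4 ± 0.502 FPKM with LPS and 30.3 ± 0.845 FPKM with PIC. *Ccr2*, *Ccr3* and *Cxcr4* reached at most 1.36 FPKM in any library.

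**Figure D1:**
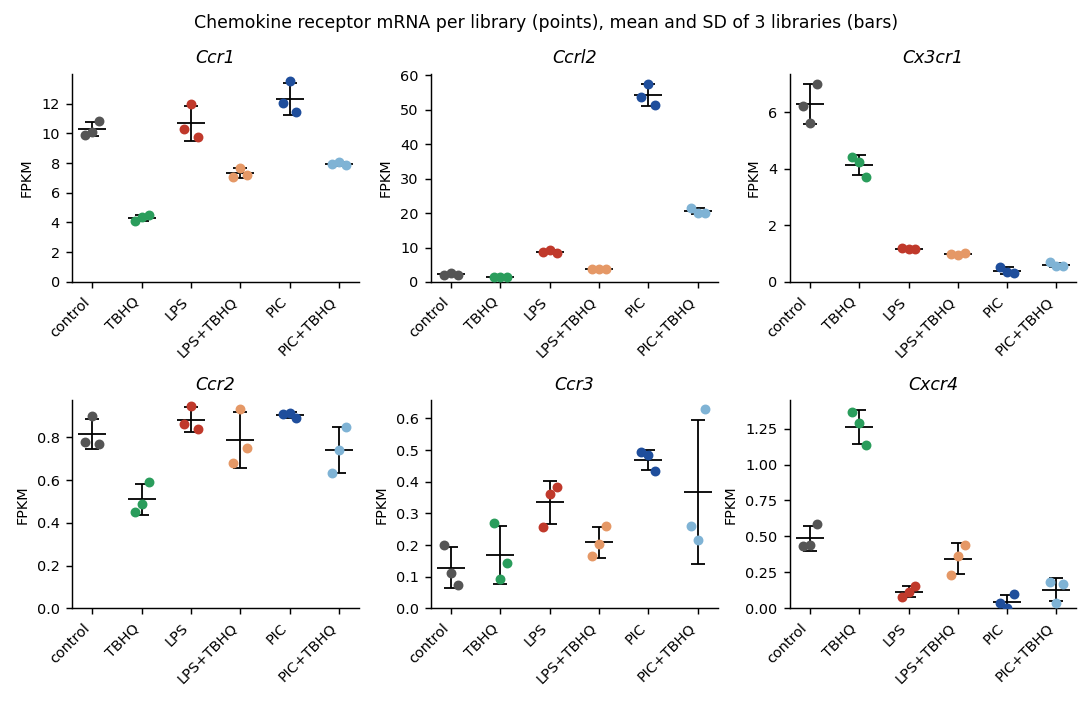
FPKM of 6 receptors (vertical axes, linear, different for each gene) in the 6 conditions (horizontal axes). Points are single libraries, and bars give the mean and SD of 3 libraries. *Ccrl2* was highest with PIC (51.3 to 57.6 FPKM), *Cx3cr1* in control (5.63 to 7.01 FPKM) and *Cxcr4* with TBHQ alone (1.14 to 1.36 FPKM). *Ackr3*, at the floor, is not drawn.

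*Ccr1* encodes a receptor for Ccl3, Ccl5, Ccl7 and Ccl9 and was the most abundant of the 7 in control cells. Its level in the control libraries was 9.89, 10.1 and 10.8 FPKM, against 4.08, 4.34 and 4.49 FPKM with TBHQ alone. No TBHQ library reached the lowest control library. The difference was 2.39-fold, a log2 change of -1.26 ± 0.09 (SE; edgeR quasi-likelihood test with Benjamini-Hochberg adjustment over 13691 genes, adjusted p = 5.8e-14). The libraries are bulk samples, so fewer cells with a transcript and less transcript per cell cannot be told apart. LPS libraries held 10.3, 11.9 and 9.73 FPKM of *Ccr1*, a range that overlapped the control (log2 change 0.05 ± 0.08, edgeR adjusted p = 0.67).

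With PIC, *Ccr1* stood at 12.0, 13.5 and 11.4 FPKM, all above the control libraries, but the difference was small (log2 change 0.24 ± 0.08, edgeR adjusted p = 0.0069). This call depended on how libraries were scaled, and the mean was 31.3 CPM with PIC and 30.7 CPM in control. Scaling by total counts instead of TMM moved the median of all genes by -0.22 in PIC against control and by -0.13 in PIC against LPS, and *Ccr1* with PIC was then at 0.02 (edgeR adjusted p = 0.79; 0.0029 to 0.79 over the 10 settings that kept all libraries compared). The call was also lost without PIC replicate 2 (0.19, edgeR adjusted p = 0.058; 0.0018 to 0.058 over the 18 libraries left out in turn). TBHQ before the stimulus gave lower *Ccr1* in every library. LPS+TBHQ libraries held 7.03, 7.67 and 7.20 FPKM, below the 3 LPS libraries (log2 change -0.55 ± 0.08, edgeR adjusted p = 2.0e-06). PIC+TBHQ libraries held 7.93, 8.10 and 7.83 FPKM, below the 3 PIC libraries (log2 change -0.62 ± 0.08, edgeR adjusted p = 1.1e-07). In order, *Ccr1* ran from PIC through LPS and control, each overlapping the next, to PIC+TBHQ, LPS+TBHQ and TBHQ, which were separate from their neighbours.

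*Ccr2*, the receptor for Ccl2, Ccl7 and Ccl12, was a minor transcript. Control libraries held 81, 99 and 88 counts (0.781, 0.899 and 0.770 FPKM), and TBHQ libraries 52, 54 and 68 counts (0.451, 0.489 and 0.590 FPKM). The TBHQ libraries lay below the control libraries without overlap, a 1.60-fold difference (log2 change -0.68 ± 0.17, edgeR adjusted p = 0.0017). With LPS there were 83, 92 and 81 counts and with PIC 84, 86 and 102 counts, and neither condition passed the test against control. The log2 changes were 0.11 ± 0.16 for LPS (edgeR adjusted p = 0.61) and 0.13 ± 0.16 for PIC (edgeR adjusted p = 0.49). TBHQ before LPS gave 0.681, 0.935 and 0.750 FPKM, which overlapped LPS alone at 0.864, 0.948 and 0.838 FPKM. TBHQ before PIC gave 0.636, 0.739 and 0.848 FPKM, all below the 0.910, 0.915 and 0.891 FPKM of PIC alone, yet the difference did not pass (log2 change -0.28 ± 0.16, edgeR adjusted p = 0.20). TBHQ alone was thus the 1 condition in the order of *Ccr2* levels that did not overlap its neighbour.

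*Ccr3*, the eotaxin receptor known from eosinophils, was near the floor in control cells and higher after both stimuli. Counts were 10, 6 and 4 in control, 12, 17 and 18 with LPS and 22, 22 and 24 with PIC. In FPKM the control libraries (0.0723 to 0.199) did not overlap the LPS libraries (0.258 to 0.385) or the PIC libraries (0.433 to 0.493). *Ccr3* rose with PIC by a log2 change of 1.85 ± 0.45 (edgeR adjusted p = 5.6e-04). The counting ratio was 3.15 (95% interval 1.89 to 5.48). With LPS the log2 change was 1.38 ± 0.47 (edgeR adjusted p = 0.015). That call was lost without control replicate 2 (1.31), control replicate 3 (1.10) or LPS replicate 3 (1.28), with edgeR adjusted p from 0.0083 to 0.087 over the 18 libraries left out in turn. TBHQ alone gave 15, 5 and 8 counts, which overlapped the control. *Ccr3* passed the filter on low counts through the stimulated libraries, where it was higher.

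TBHQ before a stimulus made no detectable difference to *Ccr3*. LPS+TBHQ held 9, 11 and 15 counts (log2 change -0.67 ± 0.43, edgeR adjusted p = 0.29). PIC+TBHQ held 13, 10 and 33 counts (log2 change -0.32 ± 0.38, edgeR adjusted p = 0.57), and its 3 libraries spread from 0.215 to 0.629 FPKM because replicate 3 stood apart from the other 2. Over the 18 libraries left out in turn this log2 change ran from -0.97 to -0.07, with edgeR adjusted p from 0.10 to 0.93.

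*Ccrl2*, an atypical receptor that binds chemerin and presents it to neighbouring cells, was the receptor with the largest log2 change with PIC. With LPS *Cx3cr1* moved farther. The LPS change of *Cxcr4* (-2.04 ± 0.52) was close in size to that of *Ccrl2* (1.95 ± 0.09). It ran from -2.28 to -1.83 over the 18 libraries left out in turn, so these 2 receptors could not be ranked. Control libraries held 2.11, 2.65 and 2.03 FPKM (84, 112 and 89 counts). With LPS the level was 8.67, 9.25 and 8.45 FPKM, and with PIC 53.8, 57.6 and 51.3 FPKM (1909, 2078 and 2257 counts). Every LPS library exceeded every control library, and every PIC library exceeded every LPS library. *Ccrl2* was 3.87-fold higher with LPS (log2 change 1.95 ± 0.09, edgeR adjusted p = 3.5e-19) and 23.7-fold higher with PIC (log2 change 4.57 ± 0.08, edgeR adjusted p = 4.8e-33). Between the stimuli themselves, PIC gave 6.12 times the level of LPS (log2 change 2.61 ± 0.06, edgeR adjusted p = 1.2e-26).

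*Ccrl2* was lower with TBHQ in each of the 3 settings in which it was given. Alone it left 1.51, 1.39 and 1.51 FPKM, below all control libraries (log2 change -0.62 ± 0.13, edgeR adjusted p = 2.7e-04). Before LPS it gave 3.80, 3.78 and 3.77 FPKM, a 2.33-fold lower level than LPS alone (log2 change -1.22 ± 0.08, edgeR adjusted p = 5.1e-14). Before PIC it gave 21.6, 20.02 and 20.01 FPKM, 2.62-fold lower than PIC alone (log2 change -1.39 ± 0.06, edgeR adjusted p = 4.8e-20). None of the 6 conditions overlapped its neighbour in the order PIC, PIC+TBHQ, LPS, LPS+TBHQ, control and TBHQ. PIC after TBHQ therefore still left *Ccrl2* above the level of LPS alone. The difference between the TBHQ effects under the 2 stimuli was -0.17 ± 0.10 on the log2 scale and did not pass (edgeR interaction contrast, adjusted p = 0.49).

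*Cx3cr1*, the receptor for the membrane-bound chemokine fractalkine (Cx3cl1), moved in the opposite direction. Control libraries held 6.23, 5.63 and 7.01 FPKM (431, 413 and 534 counts). LPS left 1.19, 1.17 and 1.16 FPKM, and PIC 0.537, 0.367 and 0.301 FPKM (33, 23 and 23 counts). The 3 conditions did not overlap. *Cx3cr1* was lower by 5.38-fold with LPS (log2 change -2.43 ± 0.12, edgeR adjusted p = 1.4e-18) and 16.0-fold lower with PIC (log2 change -4.00 ± 0.15, edgeR adjusted p = 6.2e-23). PIC against LPS gave a log2 change of -1.58 ± 0.19 (edgeR adjusted p = 3.4e-08).

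With TBHQ alone *Cx3cr1* was also lower, at 4.43, 4.24 and 3.72 FPKM, below all control libraries (log2 change -0.61 ± 0.10, edgeR adjusted p = 1.2e-05). Before LPS it left 0.982, 0.935 and 1.04 FPKM, all below LPS alone, although the change did not pass (log2 change -0.26 ± 0.15, edgeR adjusted p = 0.25). Before PIC the libraries held 0.694, 0.578 and 0.553 FPKM, all above PIC alone. This last difference passed narrowly (log2 change 0.63 ± 0.21, edgeR adjusted p = 0.021), and it was not robust to the libraries used. It was lost without PIC replicate 2 (0.57), PIC replicate 3 (0.42) or PIC+TBHQ replicate 1 (0.52), with edgeR adjusted p from 0.0052 to 0.18 over the 18 libraries left out in turn. It was also lost when edgeR was fitted to the compared groups alone (adjusted p = 0.077) and with limma on log2(FPKM + 1) (adjusted p = 0.058), and over the 10 settings with all libraries compared the adjusted p ran from 0.0033 to 0.077.

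The opposite signs after LPS and after PIC were tested as a difference. TBHQ moved *Cx3cr1* by 0.89 ± 0.26 more on the log2 scale under PIC than under LPS, which did not pass (edgeR interaction contrast, adjusted p = 0.076). It passed with limma on log2(FPKM + 0.1) (0.75, adjusted p = 0.034; 0.034 to 0.14 over 8 settings) and without PIC replicate 1 (1.12, edgeR adjusted p = 0.028; 0.028 to 0.23 over the 18 libraries left out in turn). In order, *Cx3cr1* ran from control through TBHQ, LPS, LPS+TBHQ and PIC+TBHQ to PIC, with no overlap between neighbours.

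*Cxcr4*, the receptor for Cxcl12, which also binds Mif, was the 1 receptor that was higher with TBHQ alone and passed the test. Control libraries held 12, 13 and 18 counts (0.432, 0.441 and 0.589 FPKM), and TBHQ libraries 42, 38 and 35 counts (1.36, 1.29 and 1.14 FPKM). The lowest TBHQ library was well above the highest control library. The summed counts of 115 against 43 gave a ratio of 2.56 (95% interval 1.79 to 3.73), with a log2 change of 1.36 ± 0.34 (edgeR adjusted p = 0.0023). Both stimuli went the other way. LPS libraries held 2, 3 and 4 counts, a ratio to control of 0.222 (95% interval 0.0951 to 0.461; log2 change -2.04 ± 0.52, edgeR adjusted p = 0.0014). PIC libraries held 1, 0 and 3 counts, at the floor, and the ratio to control was 0.0863 (95% interval 0.0225 to 0.237; edgeR adjusted p = 2.8e-05).

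After TBHQ, LPS libraries held 7, 11 and 14 counts of *Cxcr4*, each above LPS alone. The ratio was 3.04 (95% interval 1.42 to 7.25), but the call rested on single libraries (log2 change 1.54 ± 0.55, edgeR adjusted p = 0.038). It was lost without LPS replicate 1 (1.33), 2 (1.54) or 3 (1.80), without LPS+TBHQ replicate 2 (1.51) or 3 (1.33), with edgeR adjusted p from 0.028 to 0.15 over the 18 libraries left out in turn. It was lost too with DESeq2 (adjusted p = 0.076) and without a filter on low counts (edgeR adjusted p = 0.060), against 0.018 to 0.076 over the 8 settings with all libraries compared. PIC+TBHQ libraries held 5, 1 and 5 counts and overlapped PIC alone, with a ratio of 2.83 (95% interval 0.840 to 12.2). *Cxcr4* passed the filter on low counts through the control and TBHQ libraries.

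**Figure D2:**
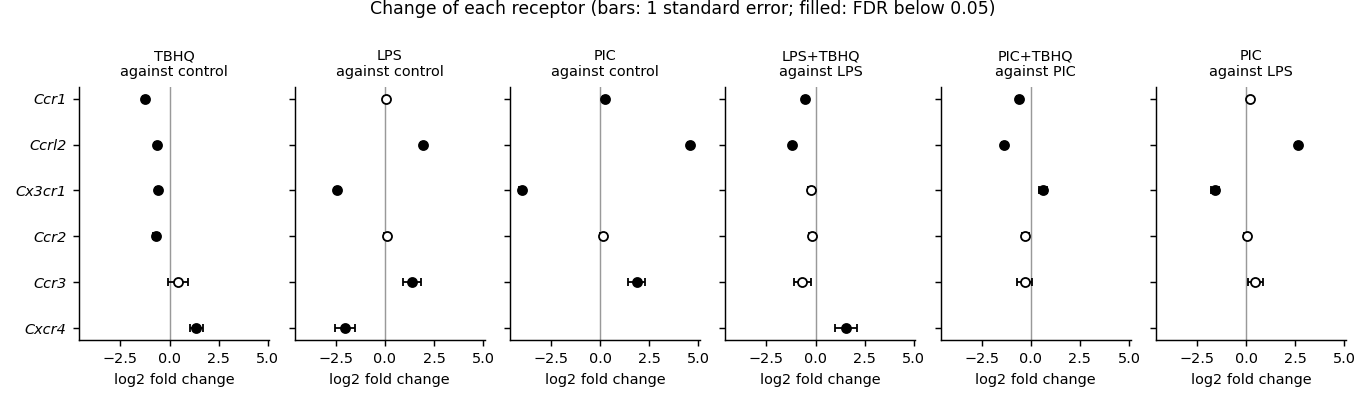
Log2 fold change (horizontal axes, same scale) of 6 receptors in 6 comparisons. Points are edgeR estimates over 3 libraries per condition, bars are 1 standard error, and filled points have an adjusted p below 0.05. *Ccrl2* and *Cx3cr1* lie farthest from 0 with PIC, at 4.57 and -4.00. *Cxcr4* is left out of comparisons with PIC, where it was at the floor.

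Of the 7 receptors, 6 passed the filter on low counts, and their calls were read against those of all 13691 genes tested. A gene was called at an edgeR adjusted p below 0.05. With TBHQ alone, 1 receptor was higher (*Cxcr4*, which passed the filter through control and TBHQ libraries), against 14.2% of all genes. In the other direction 4 were lower (*Ccr1*, *Ccr2*, *Ccrl2* and *Cx3cr1*), against 14.8% of all genes. The median log2 change over the 6 was -0.61, while that over all genes was -8.6e-05. At the study's own threshold, an adjusted p below 0.01 and a log2 change beyond 2 in either direction, edgeR called 0 receptors with TBHQ, where 0.190% of all genes passed, and DESeq2 and both limma fits also called 0. Without the fold limit, 5 of the 6 receptors had an unadjusted p below 0.05 there.

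LPS and PIC shared the same control libraries, so their changes against control are not independent. With LPS, 2 receptors were higher (*Ccr3* and *Ccrl2*), against 24.0% of all genes, and 2 were lower (*Cx3cr1* and *Cxcr4*), against 24.1%. *Ccr3* passed the filter on low counts through stimulated libraries, where it was higher, and *Cxcr4* through control and TBHQ libraries, where it was higher. Their calls with LPS and with PIC are therefore not independent of that filter, and the LPS call of *Ccr3* depended on single libraries. With LPS the study's threshold was passed by 2 receptors (*Cx3cr1* and *Cxcr4*), against 1.64% of all genes. *Cxcr4* was just past it, and fell short without control replicate 3 or LPS replicate 1, which left 1 receptor. Over the 18 libraries left out in turn 1 to 3 receptors passed. The number was 0 with limma on log2(FPKM + 1) and 1 with limma on log2(FPKM + 0.1). With PIC, 3 receptors were higher (*Ccr1*, *Ccr3* and *Ccrl2*), against 28.6%, and 2 were lower (*Cx3cr1* and *Cxcr4*), against 30.1%, where *Ccr1* was no longer called under total-count scaling. *Ccrl2*, *Cx3cr1* and *Cxcr4* passed the study's threshold, 3 receptors against 3.57% of all genes. *Cxcr4* was at the floor with PIC, and its log2 change ran from -3.42 to -0.51 over the 9 settings with all libraries compared. Its place past the fold limit thus depended on the setting. The median log2 change over the receptors was 0.08 with LPS and 0.19 with PIC, since members moved in both directions.

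After TBHQ, LPS gave 1 receptor higher than LPS alone (*Cxcr4*), against 11.7% of all genes, and 2 lower (*Ccr1* and *Ccrl2*), against 12.2%. PIC after TBHQ gave 1 higher than PIC alone (*Cx3cr1*), against 15.8%, and 2 lower (*Ccr1* and *Ccrl2*), against 15.5%. Directly compared, PIC gave 1 receptor above LPS (*Ccrl2*), against 14.9%, and 1 below (*Cx3cr1*), against 12.8%. *Ccr1* missed that call narrowly (log2 change 0.20 ± 0.08, edgeR adjusted p = 0.056). The interaction contrast in edgeR called 0 receptors higher under PIC, against 0.825% of all genes, and 0 lower, against 1.01%. At an unadjusted p below 0.05 it held 1 receptor (*Cx3cr1*), while DESeq2 and limma on log2(FPKM + 1) called 0 and limma on log2(FPKM + 0.1) called 1.

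Ligands of the 7 receptors were read from the same libraries, with 10 of the 16 listed passing the filter. Of these, *Ccl12* and *Cxcl11* were at the floor in control and passed the filter through stimulated libraries, where they were higher. They are thus 2 of the ligands counted as higher with LPS and with PIC. For the same reason they are 2 of those counted as lower with TBHQ before LPS and before PIC. With LPS 9 were higher and 1 lower (*Mif*), against 24.0% and 24.1% of all genes, and the median log2 change was 2.98, or 2.83 when these 2 were set to the floor in control. With PIC 9 were higher and edgeR called 0 lower (0 at an unadjusted p below 0.05 and 0 by DESeq2 and both limma fits), against 28.6% and 30.1% of all genes, and the median was 4.15 (4.10 with those 2 at the floor). *Ccl5*, a ligand of *Ccr1*, went from 5.80 ± 1.13 FPKM (SD, n = 3) in control to 211 ± 7.24 FPKM with LPS and 877 ± 69.4 FPKM with PIC. *Ccl3*, another *Ccr1* ligand, went from 484 ± 10.2 FPKM to 2933 ± 290 FPKM with LPS and 5578 ± 504 FPKM with PIC. *Ccr1* itself did not pass the test with LPS. TBHQ before LPS gave 1 ligand higher (*Mif*) and 9 lower (7 by DESeq2 and both limma fits), against 11.7% and 12.2% of all genes, with a median log2 change of -1.22. TBHQ before PIC gave 1 higher (*Mif*) and 9 lower, against 15.8% and 15.5%, with a median of -1.08. With TBHQ alone edgeR called 2 higher (*Ccl2* and *Ccl3*) and 1 lower (*Ccl9*), against 14.2% and 14.8% of all genes, while DESeq2 and both limma fits called 1 higher, and limma on log2(FPKM + 0.1) called 2 lower. The median over all genes ran from -0.0146 to 0.0089 over these comparisons.

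Some ligands were scarce or absent. *Cxcl12*, a ligand of *Cxcr4* and *Ackr3*, and *Ccl11*, a ligand of *Ccr3*, had 0 counts in every library. *Rarres2*, which encodes chemerin, had at most 1 count in a library, and *Cx3cl1* at most 5.

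Among 18 other chemokine receptors 10 were at the floor in every library, and *Ccr7*, *Ccr6*, *Ccr8*, *Ackr1* and *Cmklr1* had 0 counts throughout. The filter was passed by 6 of them. With LPS edgeR called 3 higher and 1 lower, against 24.0% and 24.1% of all genes, and DESeq2 and limma on log2(FPKM + 1) called 2 higher. With PIC edgeR called 4 higher and 1 lower, against 28.6% and 30.1%, and both limma fits called 3 higher. The median log2 changes were 0.50 and 0.90. *Cxcr3* was the most abundant in control, at 6.47 FPKM, close to *Cx3cr1*. It was lower with LPS (log2 change -1.19, edgeR adjusted p = 1.3e-08) and with PIC (-0.63, edgeR adjusted p = 1.5e-04). With TBHQ alone 1 of the 6 was lower (*Cxcr3*, called by edgeR and both limma fits but not by DESeq2), and with TBHQ before LPS the same gene was higher.

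Of 27 listed genes that carry or end the receptor signal 26 were tested. With LPS 8 were higher and 5 lower, against 24.0% and 24.1% of all genes. With PIC 12 were higher and 11 lower, against 28.6% and 30.1%, and with TBHQ alone 11 and 4, against 14.2% and 14.8%. TBHQ before LPS gave 6 higher and 3 lower, against 11.7% and 12.2%, and TBHQ before PIC 8 higher and 4 lower, against 15.8% and 15.5%. With LPS the regulators of G protein signalling *Rgs16* (log2 change 1.61) and *Rgs3* (0.64) and the receptor kinase *Grk5* (0.62) stood highest. The β-arrestin gene *Arrb1* (-0.55), the receptor kinase *Grk6* (-0.55) and *Rgs2* (-0.33) stood lowest. The median log2 change of the 26 genes was 0.00 with LPS and 0.06 with PIC.

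In position, 5 of the 7 receptor genes lie on chromosome 9 and 2 on chromosome 1. In the files' coordinates *Ccr1* (ENSMUSG00000025804) lies on chromosome 9 from 123762161 to 123768729 on the minus strand. *Ccr3* (ENSMUSG00000035448) follows from 123822009 to 123831726 and *Ccr2* (ENSMUSG00000049103) from 123901987 to 123913594, both on the plus strand. *Ccrl2* (ENSMUSG00000043953) lies from 110883554 to 110886587 and *Cx3cr1* (ENSMUSG00000052336) from 119730682 to 119898945, both on the minus strand. *Cxcr4* (ENSMUSG00000045382) lies on chromosome 1 from 128515936 to 128520030 on the minus strand, and *Ackr3* (ENSMUSG00000044337) from 90131702 to 90144473 on the plus strand. The submitters' processing notes name both GRCm38 and mm39, and these positions differ from those of the GRCm38 annotation.

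Within 200000 bases of the receptors lay 32 other protein-coding genes, of which 15 were tested. With PIC 5 of these were higher and 4 lower, against 28.6% and 30.1% of all genes. The body of *Cx3cr1* overlaps 9 other genes, of which *Csrnp1* and *Gorasp1* on the same strand and *Wdr48* on the opposite strand were tested. *Csrnp1* was higher with LPS and PIC (log2 changes 1.10 and 2.19, edgeR adjusted p = 1.1e-14 and 1.8e-24) and lower with TBHQ alone (-0.28, edgeR adjusted p = 0.010). *Gorasp1* was lower with LPS and PIC, as *Cx3cr1* was (log2 changes -0.25 and -0.38, edgeR adjusted p = 0.0094 and 1.0e-04). In the GRCm38 annotation the exons of *Cx3cr1* overlap those of 1 other gene, the opposite-strand *Gm33858*, by 78 of 4505 bases, and that gene had 8 counts over all libraries. The exons of the other 6 receptors overlap no gene. Of the words of 50 bases in *Ccr2* transcripts 1.91% also occur in another gene, of those in *Cx3cr1* 0.269%, and of those in the other 5 receptors none.

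Promoter windows were searched for motifs of NF-κB, Nrf2 and AP-1. All 7 receptors matched RefSeq promoter entries (GRCm38.p6, 9 windows). A receptor is named when any of its windows matched, whereas the share of all windows is counted per window. Receptors and shares are thus not in like units. A consensus NF-κB motif, read on both strands, was found in windows of *Ccr1*, *Ccr3* and *Ccrl2*, and in 8.46% of all 32851 windows. The core of the antioxidant response element (TGACNNNGC or TGAGNNNGC) was found in *Ccr2*, *Ccr3*, *Ccrl2* and *Cx3cr1*, and in 27.8% of all windows. The AP-1 motif TGANTCA was found in *Ccr3* and in 7.81% of all windows. These motifs were chosen after the values had been seen, and a match describes letters and not binding. None of these 3 motifs was found in a window of *Cxcr4* or *Ackr3*. The *Ccrl2* promoter is shown because that gene moved most with PIC. It covers 250 bases before a RefSeq start site (chr9:111057519-111057768 of GRCm38.p6, minus strand), with the NF-κB match, 56 to 47 bases before the start site, in capitals.
Ccrl2: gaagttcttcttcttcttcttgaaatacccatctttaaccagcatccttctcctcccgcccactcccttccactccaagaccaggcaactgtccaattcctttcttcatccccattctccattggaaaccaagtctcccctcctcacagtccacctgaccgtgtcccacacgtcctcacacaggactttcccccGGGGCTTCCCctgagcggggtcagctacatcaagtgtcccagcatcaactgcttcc

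Likeness of pattern was measured as Pearson's r of log2 CPM over the 18 libraries, which share 6 conditions and their depths, among 9794 protein-coding genes with a mean of at least 50 counts. The 4 receptors with such a mean were compared. For *Ccrl2* the most alike genes were *Oasl1* (r = 0.992), *Pstpip1* (0.990) and *St3gal1* (0.989). *Oasl1* belongs to the interferon-induced oligoadenylate synthetase family. For *Cx3cr1* they were *Dpy19l1* (0.980), *Mef2c* (0.979), a transcription factor gene, and *Nmral1* (0.977). For *Ccr1* they were *Wdr11* (0.960), the glycolytic enzyme gene *Tpi1* (0.950) and *Ndrg1* (0.948). For *Ccr2* they were *Krcc1* (0.897), *Ccr1* itself (0.886) and *Hspa5* (0.873), a chaperone gene of the endoplasmic reticulum.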

How the data were processed

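The deposited gene table holds unnormalized counts. The FPKM in the authors' table are scaled by gene length and library total. As tested on the values, the deposited FPKM also hold 1 constant per library (0.943 to 1.12). It was 0.951 in control replicate 1 and 1.11 in PIC replicate 1, where the TMM factors were 1.06 and 0.913. The deposited FPKM are thus scaled much like TMM values and not by library total alone. The submitters' processing notes name HISAT2 2.0.5, featureCounts 1.5.0-p3 and StringTie 1.3.3b. Kits are described as both strand-specific and not, and the strand setting of the counting is not given in the sources used here.

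Counts were tested in R 4.3.3 with edgeR 4.0.16 (filterByExpr, TMM, glmQLFit and glmQLFTest, 1 coefficient per condition over 18 libraries). Benjamini-Hochberg adjustment ran over 13691 genes, and an adjusted p below 0.05 was a call. The common dispersion was 0.00192. The SE was derived from the F statistic. Counting ratios used exact 95% binomial intervals on summed counts and library totals. Python 3.11.15 (pandas 2.3.3, scipy 1.17.1) was used for the rest. The fits were tested on simulated data.

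The members and lists were chosen with earlier results of these data known. Named genes are the members, tested genes of the receptor, ligand and neighbour lists, the 3 highest and 3 lowest called signalling genes with LPS, and the 3 genes most alike in pattern. Cell type markers, some receptor and ligand genes with few or no counts, and *Gm33858*, which overlaps *Cx3cr1*, are named as well. Alternatives were DESeq2 1.42.0, edgeR on the compared groups only, RLE or total-count scaling, no filter or a mean of at least 50 counts, the replicate number as a block, an adjusted p below 0.01, limma 3.58.1 on log2(FPKM + 1) and log2(FPKM + 0.1), TMM-scaled CPM for levels, and leaving out each library in turn. GENCODE's GRCm38 annotation served for exon overlap and shared sequence.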

Additional observations from a re-analysis of the deposited data

How the results depend on the processing

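Of 1133 log2 changes recomputed under another setting 1092 kept their direction and their side of the threshold, 20 lost the call, 9 gained it and 12 changed sign, none of them called. Of 554 counts 533 stayed within 1.5 times the value reported, and 29 of 30 relative levels moved by less than the replicate spread. The alternative for levels was TMM-scaled CPM, which is scaled much as the deposited FPKM are. It therefore cannot show whether the levels depend on scaling. The level of *Ccrl2* with LPS+TBHQ relative to control was 1.66 in TMM-scaled CPM, which differed from FPKM by more than the replicate spread. Cells with TBHQ alone were harvested after 4 h, and stimulated cells after at least 12 h of treatment. Where no reason is given, the cause was not tested.

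Under total-count scaling *Ccr1* turned to -0.0421 with LPS and *Ccr2* to -0.0862 in PIC against control and -0.10 in PIC against LPS. A mean of at least 50 counts, which leaves out *Ccr3* and *Cxcr4*, left 2 receptors called with LPS in place of 4 and 3 with PIC in place of 5, and 1 receptor past the study's threshold with LPS in place of 2. Genes past that threshold with this filter were 7 with TBHQ, 116 with LPS and 246 with PIC, in place of 26, 224 and 489. limma on log2(FPKM + 1) gave 2, 61 and 155 genes and 0 receptors with LPS past it, and limma on log2(FPKM + 0.1) gave 14 genes with TBHQ and 1 receptor with LPS. edgeR on the compared groups only gave 16 genes with TBHQ. At an adjusted p below 0.01, 2178 genes were called in LPS+TBHQ against LPS in place of 3274, and 115 in the interaction contrast in place of 251, which became 380 without a filter. The interaction contrast called 1 receptor (*Cx3cr1*) with limma on log2(FPKM + 0.1). *Ccr1* in PIC against LPS passed with RLE scaling, a mean of at least 50 counts, the replicate block and both limma fits (adjusted p 0.041 to 0.53 over 9 settings), and without LPS replicate 2 (0.29) or PIC replicate 3 (0.26).

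With each library left out in turn, receptors past the study's threshold with LPS numbered 1 to 3, genes in the interaction contrast 160 (without LPS+TBHQ replicate 2) to 354, and receptors in it 0 to 1. Uncalled values that changed sign were *Ccr3* with TBHQ (-0.09 to 0.86; negative without TBHQ replicate 1), *Ccr1* with LPS (-0.0341 to 0.12; without LPS replicate 2), *Ccr2* in PIC against LPS (-0.008 to 0.0843; without LPS replicate 3) and, in the interaction contrast, *Ccr2* (-0.23 to 0.0284), *Ccr3* (-0.30 to 0.61) and *Cxcr4* (-0.70 to 0.94), the last positive at 0.02 without LPS replicate 1, 0.03 without LPS+TBHQ replicate 3 and 0.21 without PIC+TBHQ replicate 2.

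Replicate numbers carry no stated pairing. Over 45 pairs of libraries with the same number the correlation of deviations from the group means had a median of 0.029 (-0.079 to 0.149). Over 90 pairs with different numbers the median was -0.014 (-0.176 to 0.129). The correlation exceeded 0.1 in 3 of the 45 pairs and in 1 of the 90. Of 18 libraries, 9 correlated best with a library of their own number. With the replicate block, genes called were 4036 in place of 3973 with TBHQ, 6609 in place of 6589 with LPS, 8063 in place of 8037 with PIC, 3316 in place of 3274 in LPS+TBHQ against LPS, 4342 in place of 4285 in PIC+TBHQ against PIC, 3836 in place of 3787 in PIC against LPS, and 274 in place of 251 in the interaction contrast.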
